A study of Mus musculus with 9 samples.

Results

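The genes described here are 41 genes of ribosome biogenesis, the making of ribosomal RNA and its assembly with proteins into ribosomal subunits. A gene was counted as a member through every probe set whose only gene symbol in the platform annotation was on that list. This gave 84 probe sets of 39 genes, out of 18194 genes on the array. Each gene is given by the brightest of its probe sets, judged by the mean of all 9 arrays. No probe set carried Npm3 as its single symbol, and the Mrto4 probe set is shared with pseudogenes, so neither was analysed here. The list goes beyond its name in 1 respect: Srm and Odc1 encode enzymes of polyamine synthesis and not nucleolar factors, so 37 measured members belong to ribosome assembly itself.

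Expression was measured in mouse leukemias on a mixed C57/BL6 and 129 strain background, with 3 arrays in each of 3 groups. The first 2 groups began as primary leukemias driven by the MLL-AF9 fusion in cells with both copies of Af10 floxed. Af10, encoded by Mllt10, is a cofactor of the histone methyltransferase DOT1L. The cells received a tdTomato retrovirus (MSCV-IRES-tdTomato) that was either empty (floxed group) or expressed Cre recombinase (deleted group), and were passed to secondary recipients. Fresh bone marrow of those recipients was sorted for tdTomato. The Hoxa9-Meis1 group is bone marrow of primary leukemias transduced with Hoxa9 together with Meis1, and no floxed allele, tdTomato vector or sort is given for it. Thus Cre itself and loss of Af10 cannot be told apart. In both comparisons with Hoxa9-Meis1 leukemias, oncogene, transplant generation, vector and sort cannot be told apart. Whether arrays stand for separate mice is not stated, so a p-value here reflects only the scatter among these samples, part of which may be technical.

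Ribosome production begins in the nucleolus, where RNA polymerase I transcribes the ribosomal RNA precursor. Small nucleolar ribonucleoproteins then guide its methylation and pseudouridylation, the small subunit processome cuts and folds the part that becomes the 40S subunit, and a separate set of factors assembles the 60S subunit. Growing cells, leukemia cells among them, keep this pathway highly active. Myc is a well known activator of many of its genes, and acts through the E-box CACGTG.

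The upstream sequences of 3 members are shown because they belong to members on which the results turn or which carry an E-box before the start. Imp4 had the largest difference of any member, Odc1 was the only member called lower, and Nop2 is the other member with CACGTG upstream of its start. Each is the 250 bases before the annotated gene start from NCBI RefSeq (assembly GRCm38.p6), written 5′ to 3′ along the gene, with CACGTG in capitals. Imp4 lies at chr1:34439579-34439828 on the plus strand, Nop2 at chr6:125131633-125131882 on the plus strand and Odc1 at chr12:17544623-17544872 on the plus strand.
Imp4: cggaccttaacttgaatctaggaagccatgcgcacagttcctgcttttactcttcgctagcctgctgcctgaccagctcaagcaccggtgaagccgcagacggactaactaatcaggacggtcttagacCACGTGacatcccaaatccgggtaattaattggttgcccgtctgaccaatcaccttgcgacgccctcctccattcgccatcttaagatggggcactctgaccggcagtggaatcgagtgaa
Nop2: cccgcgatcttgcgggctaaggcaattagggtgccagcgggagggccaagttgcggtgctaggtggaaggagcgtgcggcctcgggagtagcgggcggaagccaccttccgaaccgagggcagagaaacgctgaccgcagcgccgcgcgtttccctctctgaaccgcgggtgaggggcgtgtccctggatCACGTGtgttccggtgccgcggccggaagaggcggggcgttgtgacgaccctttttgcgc
Odc1: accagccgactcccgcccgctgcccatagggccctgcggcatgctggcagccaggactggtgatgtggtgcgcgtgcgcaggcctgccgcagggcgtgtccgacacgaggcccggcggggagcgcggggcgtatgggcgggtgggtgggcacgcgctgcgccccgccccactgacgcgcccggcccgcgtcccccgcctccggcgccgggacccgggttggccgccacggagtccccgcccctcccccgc

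In Imp4 the motif begins 121 bases before the start and in Nop2 it begins 60 bases before it, while the Odc1 stretch holds no CACGTG. The table of promoter windows (300 bases each, from 250 before to 50 after a start) held 36 windows of 32 members. It had none for Fbl, Rrp12, Bop1, Srm, Rrs1, Tcof1 and Npm1. CACGTG, which reads the same on both strands, stood in 7 of the 36 windows (19.4%), against 7.15% of all 32851 windows and 8.72% of the windows of genes on the array. Besides Imp4 and Nop2, these were Mybbp1a, Pes1, Pno1, Utp20 and Wdr43, in which it lay at or after the start. CGGAAG, the core of sites for ETS factors, was found on either strand in 18 of 36 windows, against 16.9% of all windows and 23.6% of those of genes on the array. The TATA box letters TATAAA stood in 2 of 36 (5.56%), against 13.6% and 9.77%. Base composition was not matched in these shares, and such matches describe letters and not binding.

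All values below are log2 of the deposited array intensity plus 1, differences are between group means on that scale, errors after ± are SD over 3 arrays, and a gene was called where limma's adjusted p over all genes was under 0.05. Array medians were 146 to 156 on the linear scale. Pearson's r across probe sets was 0.980 to 0.990 for arrays of the same group and 0.941 to 0.972 otherwise. The targeted gene Mllt10 read 9.93, 9.89 and 10.19 in deleted replicates 4, 5 and 6, against 11.20, 10.49 and 11.18 in floxed replicates 4, 5 and 6 and 10.93, 10.67 and 10.46 in Hoxa9-Meis1 leukemias. It fell by 0.95 from floxed to deleted (limma adjusted p = 0.0293). Which exons are floxed is not given. Ptprc, the pan-leukocyte gene, lay between 11.91 and 12.57 on all 9 arrays, and Mpo, of myeloid granules, between 13.69 and 14.26. A pair of arrays stood apart. Floxed replicate 5 had a gap of 1.03 between the Gapdh control probe sets at the 3' and 5' ends, which reads RNA integrity, against 0.44 to 0.81 elsewhere, and deleted replicate 6 was high for genes of chromosome 1, as described further on.

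Af10 deleted and floxed leukemias differed little in these genes. Between deleted and floxed leukemias 0 of the 39 members passed limma's threshold, in a comparison where 6.85% of all genes did (3.22% higher and 3.63% lower). Among the 9270 genes at least as bright on average as the dimmest member, 4.13% were higher and 5.16% lower. At an unadjusted p under 0.05, 3 members were higher (Rrs1, Rrp1b and Dkc1) and 0 were lower, against 12.3% and 9.81% of all genes. The median difference of the members was -0.01, against 0.06 over all genes, with 18 above 0 and 21 below, and it lay between -0.09 and 0.08 with each array left out. The 95% intervals of all 39 members lay inside ±1, with bounds from -0.81 to 0.93, so a 2-fold change lay outside the interval of every member, as read by its brightest probe set. All 39 differences were under 0.5 in size, as were 81.9% of those of all genes. The groups did not overlap for 4 members, all higher in deleted cells (Dkc1, Imp4, Bop1 and Rrs1), where 15.1% of all genes were higher without overlap and 10.7% lower.

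Against Hoxa9-Meis1 leukemias a few members moved. In floxed MLL-AF9 cells 1 of 39 members was called, Imp4, which was higher. There 8.89% of all genes were called (5.58% higher, 3.31% lower; 8.86% and 4.41% of the 9270 bright genes). Without overlap of the groups, 6 members were higher and 1 was lower, against 15.4% and 12.1% of all genes. At an unadjusted p under 0.05, 6 were higher and 1 was lower, against 14.3% and 9.54% of all genes. Of the 39 members 27 were above 0, as were 8715 of the 18194 genes. The members' median was 0.13, against -0.01 over all genes and 0.09 over the bright genes. It was 0.04 without floxed replicate 4, 0.09 without floxed replicate 5 and 0.08 without Hoxa9-Meis1 replicate 2. In deleted cells 3 of 39 were called against Hoxa9-Meis1: Imp4 and Rrs1 were higher and Odc1 was lower, in a comparison with 15.5% of all genes called (9.27% higher, 6.23% lower; 14.3% and 8.83% of the bright genes). Without overlap, 12 members were higher and 4 lower (Polr1a, Npm1, Nop56 and Odc1), against 21.7% and 13.2% of all genes. At an unadjusted p under 0.05, 7 were higher and 3 lower, against 17.6% and 11.05% of all genes. There 26 members were above 0, as were 10518 of the 18194 genes. The members' median was again 0.13, against 0.05 over all genes and 0.11 over the bright genes. It was 0.08 without deleted replicate 4, and 0.04 for the members and for all genes alike when the probe sets of each gene were averaged. No member differed by more than 1 in any of the comparisons, whereas 5.46% of all genes did in floxed and 8.44% in deleted cells against Hoxa9-Meis1. The 3 comparisons share arrays, so their values for a member are not independent.

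**Figure D1:**
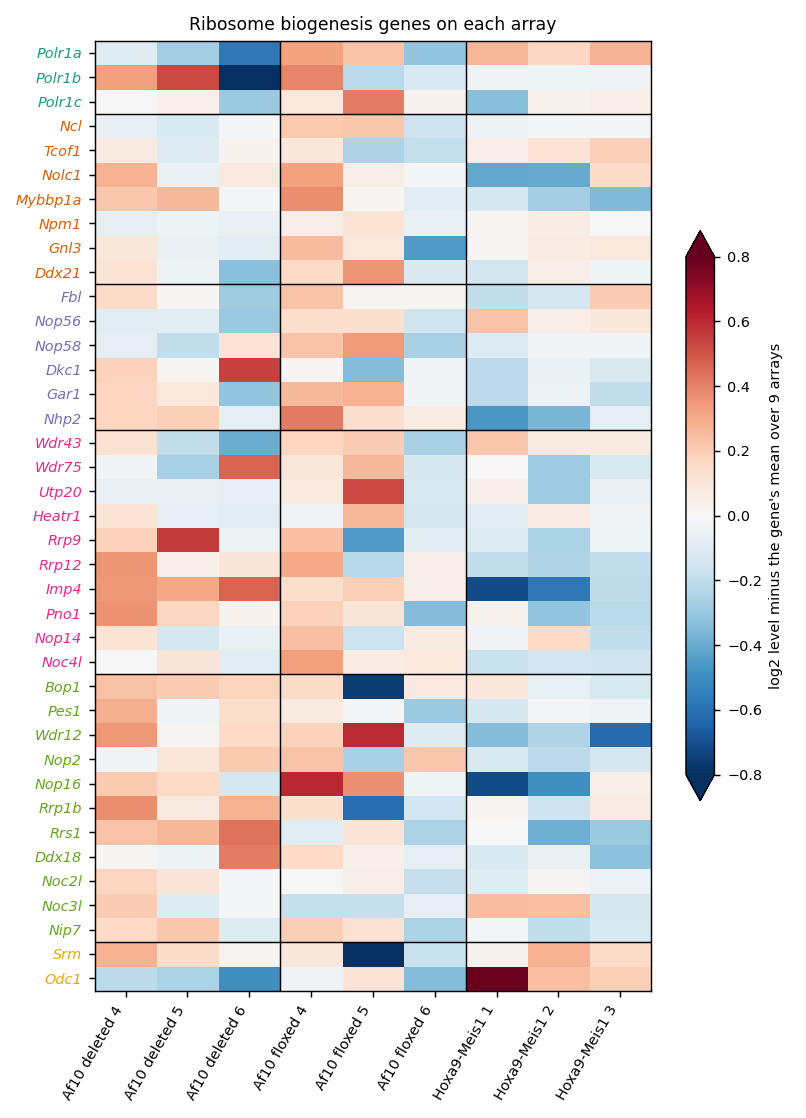
Heat map of the 39 measured members (rows, ordered by role) on the 9 arrays (columns, by group), coloured by the gene's log2 level minus its mean over all arrays on a scale from -0.8 to 0.8. Most rows are pale in all groups; Imp4 runs low in the Hoxa9-Meis1 arrays, Odc1 high there, and the columns of floxed replicates 4 and 6 differ across many rows.

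Members also differed between arrays of the same group. Floxed replicate 4 held the highest floxed value for 23 of 39 members and floxed replicate 6 the lowest for 26. Deleted replicate 4 was highest of its group for 22 and deleted replicate 6 lowest for 22. The Hoxa9-Meis1 arrays were more even, with 14, 14 and 11 members highest on replicates 1, 2 and 3. The median deviation of the members from their mean over all arrays was 0.16, 0.01 and -0.02 in deleted replicates 4 to 6. It was 0.17, 0.10 and -0.12 in the floxed arrays and -0.09, -0.05 and -0.03 in the Hoxa9-Meis1 arrays, so the deleted arrays lay inside the range of the floxed ones.

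Chromosome 1 carries 7 of the members (Ncl, Nop58, Wdr75, Imp4, Wdr12, Rrs1 and Ddx18), among them both members called higher. Against Hoxa9-Meis1 their medians were 0.21 in floxed and 0.30 in deleted cells. The 32 members on other chromosomes had medians of 0.05 and 0.08, with 0 called higher. On deleted replicate 6 these 7 stood at a median of 0.18 above the mean of the group's other arrays, with 6 of 7 above it. The 32 members on other chromosomes stood at -0.17, with 5 of 32 above. Genes at least as bright as the dimmest member did the same: the median was 0.26 for the 532 on chromosome 1 and -0.07 for the 8738 elsewhere. On floxed replicate 5 the bright genes stood at a median of 0.13 on chromosome 1 and 0.01 elsewhere. On that array all 7 chromosome 1 members were above the group's other arrays (median 0.27), while the 32 others were split evenly (median 0.01). The lowest of those were Bop1 (-0.88), Srm (-0.78), Rrp1b (-0.60) and Rrp9 (-0.53). This is the array with the Gapdh gap of 1.03, whose part in these values was not tested. With it or any other array of the deleted and floxed groups left out, 0 members were called by limma between those groups. On floxed replicate 4 the members on other chromosomes were the high ones, at a median of 0.26 with 28 of 32 above, against 0.02 for chromosome 1. The bright genes stood at -0.01 on other chromosomes and -0.08 on chromosome 1 of that array.

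**Figure D2:**
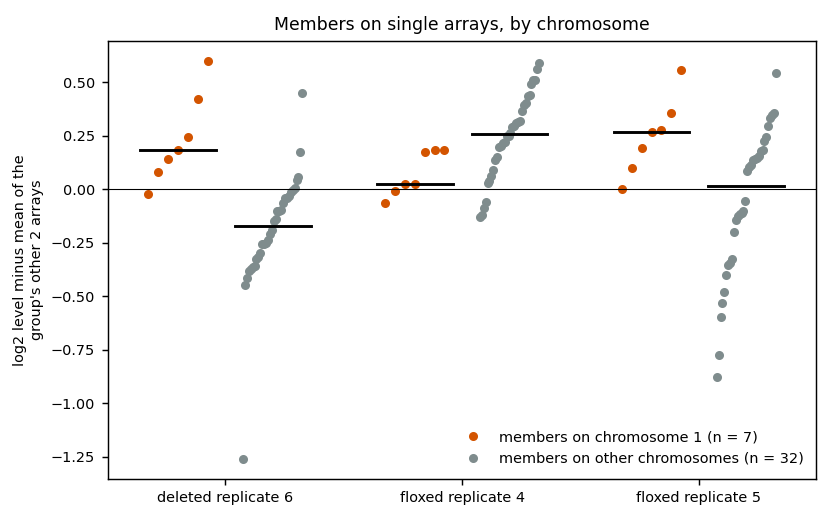
Each point is 1 member: its log2 level on deleted replicate 6, floxed replicate 4 or floxed replicate 5 minus the mean of the other arrays of that group, for the 7 members on chromosome 1 and the 32 on other chromosomes, with bars at the medians. On deleted replicate 6 the chromosome 1 members sit at a median of 0.18 and the others at -0.17.

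The polymerase itself came first in the pathway. Polr1a, the largest subunit of RNA polymerase I, read 9.55, 9.37 and 9.08 in deleted cells, 9.97, 9.88 and 9.33 in floxed cells and 9.91, 9.81 and 9.92 in Hoxa9-Meis1 cells. The deleted values were below all Hoxa9-Meis1 values but overlapped with floxed replicate 6. The difference was -0.39 from floxed to deleted (SE 0.18, limma adjusted p = 0.253) and -0.55 between deleted and Hoxa9-Meis1 (SE 0.18, limma adjusted p = 0.0795). Without floxed replicate 6 the first was -0.59, and with probe sets averaged the values were -0.16 and -0.25. That average includes probe sets at background, and those above it gave -0.39, 0.10 and -0.35 from floxed to deleted. Polr1c, a subunit shared with RNA polymerase III, read 11.03, 11.06 and 10.73 in deleted, 11.11, 11.43 and 11.05 in floxed and 10.68, 11.05 and 11.07 in Hoxa9-Meis1 cells. It differed most of the subunits between floxed and Hoxa9-Meis1, by 0.26 (limma adjusted p = 0.374), and by 0.14 without floxed replicate 5 or without Hoxa9-Meis1 replicate 1. Polr1b, the second largest subunit, read 7.69 to 2 decimals on all 3 Hoxa9-Meis1 arrays, and deleted replicate 6 was the lowest array at 6.89. The median of the 3 subunits was -0.26 from floxed to deleted, and none was called in any comparison.

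Among the 7 measured regulators of ribosomal DNA transcription and nucleolar organisation, none was called. Nucleolin (Ncl) and nucleophosmin (Npm1), abundant nucleolar proteins, varied little at their brightest probe sets: Ncl lay between 13.04 and 13.42 and Npm1 between 13.54 and 13.73 on all 9 arrays. Dimmer probe sets varied more. In the fit over all probe sets, 1 of the 5 for Ncl differed most from Hoxa9-Meis1 cells. It differed by -0.80 in floxed (limma adjusted p = 0.0510) and -0.79 in deleted cells (limma adjusted p = 0.0398). Another gave -0.46 in floxed against Hoxa9-Meis1 cells, while the brightest and the remaining ones gave 0.11, 0.31 and 0.08. The second Npm1 probe set differed by 0.44 in floxed cells (limma adjusted p = 0.105). Ddx21, an RNA helicase of the nucleolus, differed most of this group between deleted and floxed cells. It read 11.48, 11.33 and 11.03 in deleted and 11.52, 11.72 and 11.25 in floxed cells, a difference of -0.22 (SE 0.16, limma adjusted p = 0.458) with overlapping groups. Leaving out deleted replicate 6 gave -0.10, leaving out floxed replicate 5 gave -0.11, leaving out both gave 0.015, and leaving out floxed replicate 6 gave -0.34. Mybbp1a, a nucleolar protein that binds Myb, read 11.79, 11.83 and 11.56 in deleted, 11.94, 11.59 and 11.49 in floxed and 11.44, 11.29 and 11.22 in Hoxa9-Meis1 cells. All MLL-AF9 values were above those of the Hoxa9-Meis1 cells. The differences were 0.36 for floxed (limma adjusted p = 0.172) and 0.41 for deleted (SE 0.15, limma adjusted p = 0.0959). The floxed difference was 0.22 without floxed replicate 4.

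The 6 proteins of the small nucleolar particles were also uncalled, with a median of -0.14 from floxed to deleted and 0.14 from Hoxa9-Meis1 to floxed. Dkc1, the pseudouridine synthase of the H/ACA particles, was the 1 member of the 6 that lay above 0 from floxed to deleted. It read 12.45, 12.28 and 12.82 there against 12.28, 11.92 and 12.24 in floxed and 12.06, 12.22 and 12.15 in Hoxa9-Meis1 cells. Its lowest deleted value and its highest floxed value were the same to 2 decimals. The difference of 0.37 (SE 0.16, 95% interval 0.01 to 0.73) did not pass limma's adjustment (adjusted p = 0.215). It was 0.22 without deleted replicate 6 and 0.11 without floxed replicate 5 as well, and the other Dkc1 probe sets gave 0.31 and 0.04. Nhp2, another H/ACA protein, was at 12.34, 12.36 and 12.10 in deleted, 12.58, 12.29 and 12.23 in floxed and 11.70, 11.80 and 12.10 in Hoxa9-Meis1 cells. It stood 0.50 higher in floxed (SE 0.15, limma adjusted p = 0.0719) and 0.40 higher in deleted cells (SE 0.15, limma adjusted p = 0.112) than in Hoxa9-Meis1 cells, short of a call both times. Fibrillarin (Fbl), the methyltransferase of the C/D particles, lay between 11.88 and 12.39 with groups that overlapped.

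The small subunit group held the clearest difference. Imp4, a protein of the U3 particle that the early cuts of the precursor need, read 11.38, 11.35 and 11.50 in deleted, 11.18, 11.23 and 11.08 in floxed and 10.32, 10.47 and 10.83 in Hoxa9-Meis1 leukemias. The groups lay in that order without overlap, and the deleted and floxed arrays were close to each other. Imp4 was 0.62 higher in floxed than in Hoxa9-Meis1 cells (SE 0.14, 95% interval 0.30 to 0.94, 1.54-fold, limma adjusted p = 0.0279). It was 0.87 higher in deleted cells (SE 0.14, 95% interval 0.55 to 1.19, 1.83-fold, limma adjusted p = 0.00412). Deleted and floxed cells differed by 0.25 (limma adjusted p = 0.340). All 3 of its probe sets pointed the same way: 0.62, 0.44 and 0.75 for floxed and 0.87, 0.68 and 0.84 for deleted cells. The call in deleted cells held with each array left out in turn. In floxed cells it was lost without any 1 of floxed replicates 4, 5 and 6 or Hoxa9-Meis1 replicates 1 and 2, and over the fits with 1 array left out the difference lay between 0.51 and 0.77 and limma's adjusted p between 0.00798 and 0.106.

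Of the 9 other small subunit factors none was called. Rrp9, also a U3 protein, differed most between deleted and floxed cells. It read 8.84, 9.21 and 8.61 in deleted and 8.89, 8.20 and 8.57 in floxed cells, a difference of 0.33 (SE 0.20, limma adjusted p = 0.374), and its lowest value was on floxed replicate 5. The difference was 0.16 without floxed replicate 5, 0.17 without deleted replicate 5 and 0.50 without floxed replicate 4. Wdr75, on chromosome 1, ran highest on deleted replicate 6, at 10.55 against 10.07 and 9.83 on the group's other arrays. In the group as a whole 9 of 10 factors were above 0 in floxed and 8 of 10 in deleted cells against Hoxa9-Meis1, with a median of 0.18 in both, and 4 of 10 from floxed to deleted (median -0.03).

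Of the 11 measured factors of 60S assembly 1 was called, Rrs1, in deleted against Hoxa9-Meis1 cells. Rrs1, which helps bring the 5S particle into the pre-60S subunit, read 11.30, 11.34 and 11.50 in deleted, 10.99, 11.17 and 10.82 in floxed and 11.07, 10.68 and 10.77 in Hoxa9-Meis1 cells. The deleted arrays lay above the other 6, whose groups overlapped. The difference was 0.54 between deleted and Hoxa9-Meis1 cells (SE 0.14, 95% interval 0.22 to 0.86, 1.45-fold, limma adjusted p = 0.0331). It was 0.39 from floxed to deleted (SE 0.14, 95% interval 0.07 to 0.71, limma adjusted p = 0.148) and 0.15 between floxed and Hoxa9-Meis1 (limma adjusted p = 0.569). The call was lost without any of the 3 deleted arrays or without Hoxa9-Meis1 replicate 2 or 3, and over the fits with 1 array left out the difference lay between 0.46 and 0.65 and limma's adjusted p between 0.0308 and 0.121. Without deleted replicate 6, the array high for chromosome 1, the difference was 0.48 (limma adjusted p = 0.0947).

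The dimmer of the Rrs1 probe sets separated the groups more. It read 10.17, 10.14 and 10.34 in deleted, 9.48, 9.71 and 9.54 in floxed and 8.94, 9.12 and 9.15 in Hoxa9-Meis1 cells. These groups did not overlap, with deleted cells highest and Hoxa9-Meis1 cells lowest. In the fit over all probe sets, deleted exceeded floxed by 0.64 (limma adjusted p = 0.0168), floxed exceeded Hoxa9-Meis1 by 0.51 (limma adjusted p = 0.0319) and deleted exceeded Hoxa9-Meis1 by 1.14 (limma adjusted p = 0.000516). With probe sets averaged per gene in place of the brightest, Rrs1 was the only member called from floxed to deleted (0.51, limma adjusted p = 0.0222).

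Rrp1b, a nucleolar factor related to yeast Rrp1, had, with Srm, the largest difference of the members from floxed to deleted with all arrays (0.453 and 0.451). It read 10.999, 10.70 and 10.91 in deleted, 10.76, 10.02 and 10.47 in floxed and 10.65, 10.47 and 10.70 in Hoxa9-Meis1 cells. Floxed replicate 5 was the lowest array and floxed replicate 4 overlapped with the deleted arrays. The Rrp1b difference was 0.45 (SE 0.18, 95% interval 0.04 to 0.87, limma adjusted p = 0.189), and its 3 probe sets gave 0.45, 0.45 and 0.42. Without floxed replicate 5 it was 0.25 (limma adjusted p = 0.457). Bop1, of the PeBoW complex with Pes1 and Wdr12, was likewise lowest on floxed replicate 5, at 9.70 against 10.61 and 10.54 on the group's other arrays, and at 10.64 to 10.70 in deleted cells.

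Nop16 and Wdr12 had the largest 60S differences between floxed and Hoxa9-Meis1 cells, and neither passed. Nop16, a 60S assembly factor, read 9.87, 9.64 and 9.24 in floxed, 9.48, 9.43 and 9.13 in deleted and 8.55, 8.78 and 9.32 in Hoxa9-Meis1 cells. Hoxa9-Meis1 replicate 3 overlapped with both MLL-AF9 groups, and the floxed difference was 0.70 (SE 0.23, limma adjusted p = 0.0919). Wdr12 read 11.64, 11.31 and 11.45 in deleted, 11.47, 11.89 and 11.19 in floxed and 10.94, 11.05 and 10.68 in Hoxa9-Meis1 cells. All MLL-AF9 values were above the Hoxa9-Meis1 ones, by 0.63 for floxed (limma adjusted p = 0.0743) and 0.58 for deleted cells (SE 0.19, limma adjusted p = 0.0729). With probe sets averaged, a probe set at background among them, the deleted difference was 0.29. Over the 11 factors the median was 0.13 from floxed to deleted, with 9 above 0, and 0.25 for deleted against Hoxa9-Meis1, with 10 above 0.

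Of the polyamine enzymes 1 was called, and it was lower in MLL-AF9 cells. Odc1, ornithine decarboxylase, the first enzyme of the pathway, read 12.68, 12.64 and 12.40 in deleted, 12.87, 13.00 and 12.55 in floxed and 13.68, 13.13 and 13.08 in Hoxa9-Meis1 cells. Every Hoxa9-Meis1 array was above every MLL-AF9 array. Odc1 fell by 0.72 on the log2 scale in deleted relative to Hoxa9-Meis1 cells (SE 0.19, 1.65-fold, limma adjusted p = 0.0319), and the floxed difference of -0.49 (SE 0.19, 1.41-fold) did not pass (limma adjusted p = 0.145). Without Hoxa9-Meis1 replicate 1 the latter was -0.30. The deleted call was lost without any of the 3 deleted arrays or without Hoxa9-Meis1 replicate 1 or 2, and over the fits with 1 array left out the difference lay between -0.83 and -0.53 and limma's adjusted p between 0.0307 and 0.0942. The dimmest of its 3 probe sets read 11.13, 10.74 and 10.15 in deleted, 10.67, 9.93 and 9.85 in floxed and 12.62, 11.62 and 11.79 in Hoxa9-Meis1 cells. In the fit over all probe sets it passed in both comparisons, at -1.86 for floxed (limma adjusted p = 0.0123) and -1.34 for deleted cells (limma adjusted p = 0.0308). Srm, spermidine synthase, read 10.80, 10.67 and 10.55 in deleted, 10.62, 9.70 and 10.34 in floxed and 10.55, 10.80 and 10.67 in Hoxa9-Meis1 cells. Its differences were 0.45 from floxed to deleted (SE 0.21, limma adjusted p = 0.252) and -0.45 between floxed and Hoxa9-Meis1 (limma adjusted p = 0.233), and floxed replicate 5 was its lowest array. Without that array the deleted and floxed means differed by 0.19.

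**Figure D3:**
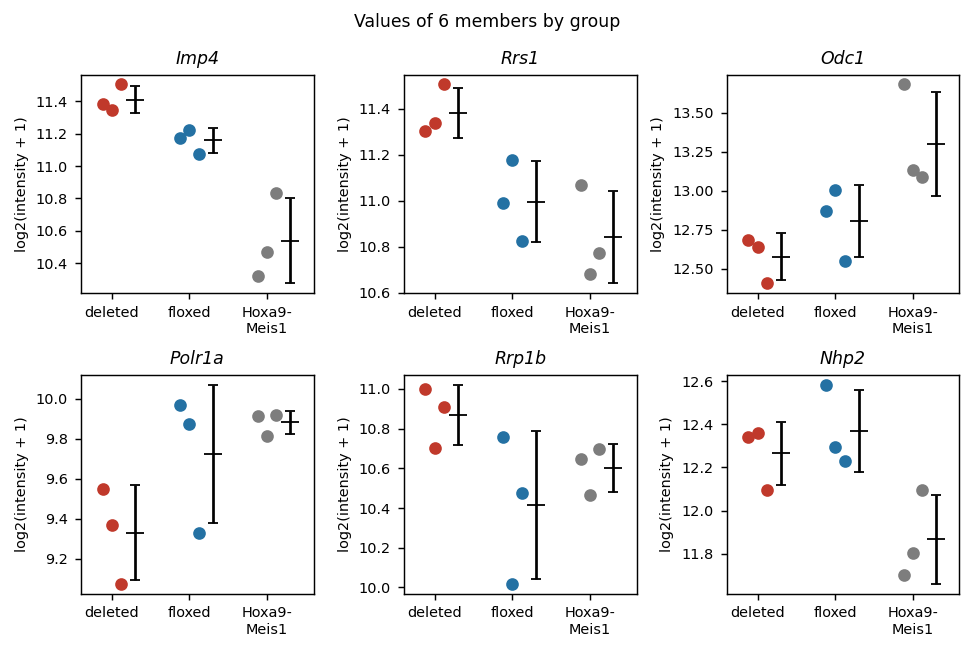
Log2 values of 6 members (Imp4, Rrs1, Odc1, Polr1a, Rrp1b and Nhp2) on each array by group, with group means and SD (n = 3). Imp4 lies lowest and Odc1 highest in the Hoxa9-Meis1 arrays without overlap, while Rrs1 sets the deleted arrays above the rest.

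**Figure D4:**
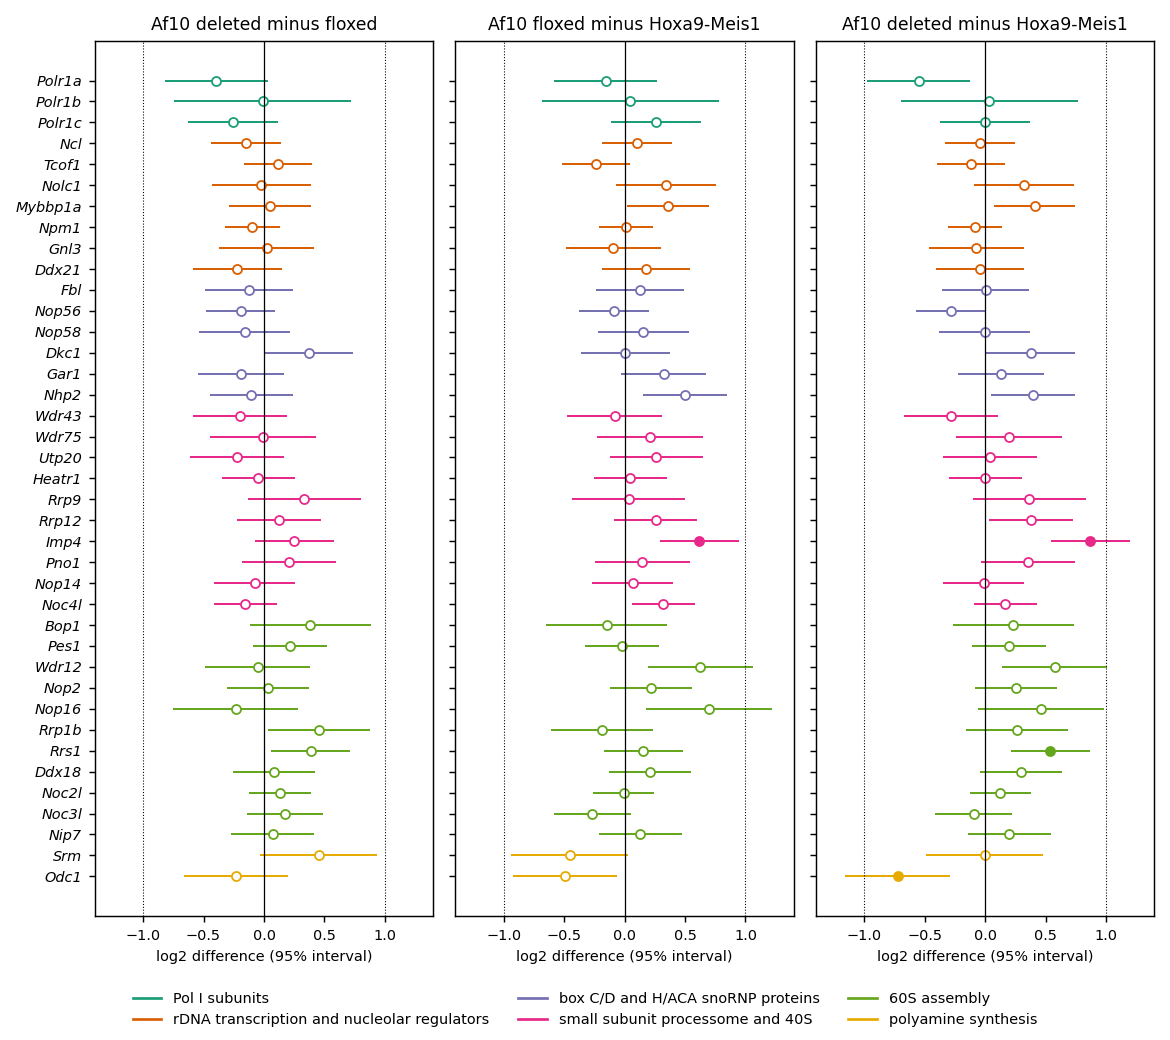
Log2 differences of the 39 members with 95% intervals in the 3 comparisons, ordered by role; filled points passed limma's threshold and dotted lines mark ±1. No point is filled in the deleted versus floxed panel, where every interval lies inside the dotted lines; Imp4 is filled in both comparisons with Hoxa9-Meis1 cells, and Rrs1 and Odc1 in that of deleted cells.

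Different probe sets of a gene did not always move together. Of the 28 members with more than 1 probe set above background, all probe sets had the same sign for 15 from floxed to deleted, 16 for floxed and 17 for deleted against Hoxa9-Meis1. Of 81 such probe sets, 1 was called higher and 1 lower from floxed to deleted, where 6.16% of all probe sets were called. The numbers were 4 and 2 for floxed (9.01%) and 7 and 5 for deleted cells against Hoxa9-Meis1 (15.0%). The call lower from floxed to deleted was a probe set of Ddx18, a helicase of 60S assembly, and was named after its values were seen. It read 9.16, 8.95 and 9.12 in deleted, 9.96, 10.44 and 9.83 in floxed and 7.94, 8.06 and 8.31 in Hoxa9-Meis1 cells. It fell by 1.0025 on the log2 scale from floxed to deleted (limma adjusted p = 0.0127) and was 1.97 higher in floxed than in Hoxa9-Meis1 cells (limma adjusted p = 0.000419). The brightest Ddx18 probe set gave 0.08 and 0.21 in the same comparisons, and neither it nor the remaining one passed. A dim second probe set of Bop1, between 5.58 and 6.83 on all arrays, was 0.91 lower in floxed than in Hoxa9-Meis1 cells (difference -0.91, limma adjusted p = 0.0118), where the brightest differed by -0.15.

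The rest of the pathway was measured through 123 of 125 other ribosome biogenesis genes. With both directions counted together, they were called at shares close to those of all genes. At an unadjusted p, however, the share higher against Hoxa9-Meis1 exceeded that of all genes. From floxed to deleted 5 rose and 3 fell, 6.50% of the 123 against 6.85% of all genes. Against Hoxa9-Meis1, 10 rose and 0 fell in floxed cells (8.13% together, against 8.89% of all genes). There 5.58% of all genes rose and 3.31% fell. In deleted cells 14 rose and 2 fell (13.0% together, against 15.5%), where 9.27% of all genes rose and 6.23% fell. At an unadjusted p under 0.05, 10 were higher (8.13%) and 5 lower (4.07%) from floxed to deleted, against 12.3% and 9.81% of all genes. Against Hoxa9-Meis1, 33 were higher (26.8%) and 7 lower (5.69%) in floxed cells, where 14.3% and 9.54% of all genes were. In deleted cells 42 were higher (34.1%) and 5 lower (4.07%), against 17.6% and 11.05%. Without overlap, 33 were higher and 8 lower in floxed cells (15.4% and 12.1% of all genes). In deleted cells 52 were higher and 7 lower without overlap (21.7% and 13.2% of all genes). The medians of the 123 were -0.00, 0.14 and 0.21, against 0.06, -0.01 and 0.05 over all genes and 0.02, 0.09 and 0.11 over the bright genes. By part of the pathway, 2 of 11 genes of the other polymerase I machinery and 3 of 36 small subunit genes rose from floxed to deleted. None of the 14 modification, 43 large subunit and 19 RNase MRP and exosome genes did. The genes that fell were 1 of the small subunit, 1 of the large subunit and 1 of the RNase MRP and exosome lists. Of all genes 3.22% rose and 3.63% fell there. The RNase MRP and exosome genes, which trim the precursor, had the highest medians against Hoxa9-Meis1, at 0.36 for floxed and 0.38 for deleted cells. In each comparison 4 of 19 rose (21.1%), against 5.58% and 9.27% of all genes. At an unadjusted p under 0.05, 8 were higher in floxed and 10 in deleted cells, against 14.3% and 17.6% of all genes, and 0 were lower.

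From floxed to deleted the largest rises were those of Znrd1, a small subunit of RNA polymerase I (0.88, limma adjusted p = 0.00967), Mphosph10, the partner of Imp4 in the U3 particle (0.86, limma adjusted p = 0.0199), and Wdr46, of the small subunit processome (0.75, limma adjusted p = 0.00479). The largest falls were those of Krr1, also of the processome (-0.67, limma adjusted p = 0.0134), the helicase Ddx51 (-0.52, limma adjusted p = 0.0399) and the exosome subunit Exosc8 (-0.43, limma adjusted p = 0.0439). Against Hoxa9-Meis1 cells Rrn3, the factor that brings polymerase I to its promoter, rose by 0.88 in floxed (limma adjusted p = 0.0178) and 1.07 in deleted cells (limma adjusted p = 0.00479). Rpp30, of RNase P and MRP, rose by 0.81 (limma adjusted p = 0.00418) and 0.92 (limma adjusted p = 0.00117). Exosc8 rose by 0.91 in floxed cells (limma adjusted p = 0.00149) and Rrp15, of 60S assembly, by 0.79 in deleted cells (limma adjusted p = 0.00479). Krr1 fell by 0.81 on the log2 scale in deleted cells (limma adjusted p = 0.00288), as did Ddx24 by 0.36 (limma adjusted p = 0.0474). Of the 45 cytosolic ribosomal protein genes, the building blocks that these factors assemble, 0 were called by limma from floxed to deleted, 1 was higher in floxed, and 2 were higher and 1 lower in deleted against Hoxa9-Meis1 cells, with medians of 0.03, 0.01 and 0.05. The shares of all genes called were 6.85%, 8.89% and 15.5%. At an unadjusted p under 0.05, 0 of the 45 differed from floxed to deleted, 4 were higher and 4 lower in floxed, and 2 were higher and 3 lower in deleted against Hoxa9-Meis1 cells.

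Myc, the known activator of the pathway, was called in 1 comparison. Its single probe set read 12.10, 11.78 and 11.57 in deleted, 11.51, 10.48 and 11.37 in floxed and 12.65, 12.36 and 11.94 in Hoxa9-Meis1 cells. The floxed arrays were the lowest, replicate 5 by far, and did not overlap with either other group. Myc fell by 1.20 on the log2 scale in floxed relative to Hoxa9-Meis1 cells (limma adjusted p = 0.0333), and its differences of 0.70 from floxed to deleted (SE 0.29, limma adjusted p = 0.196) and -0.50 between deleted and Hoxa9-Meis1 (limma adjusted p = 0.299) did not pass. The brightest Mycn probe set fell by 1.05 from floxed to deleted on the log2 scale (13.28 ± 0.11 against 14.33 ± 0.02, limma adjusted p = 0.000547). The other Mycn probe sets differed by 0.08 and 0.17, and the latter read 3.55 to 4.04, within the background range given below. Against Hoxa9-Meis1 the brightest differed by -1.10 in deleted (limma adjusted p = 0.000204) and -0.05 in floxed cells (limma adjusted p = 0.835). Mycl, the other family gene tested, differed by -0.99 from floxed to deleted with overlapping groups (limma adjusted p = 0.110).

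Levels of other cell programmes moved beside these results, and their part in them was not tested. In bulk RNA, fewer cells of a type and less RNA per cell cannot be told apart. Of 24 measured proliferation genes, 0 were called by limma from floxed to deleted (1 at an unadjusted p under 0.05), 12 rose in floxed and 15 rose in deleted against Hoxa9-Meis1 cells. Of all genes 5.58% and 9.27% were called higher in the latter comparisons. All 24 proliferation genes were above 0 in both, with medians of 0.54 for floxed and 0.52 for deleted cells. The medians were -0.01 and 0.05 over all genes, and 0.13 in both for the ribosome biogenesis members. The mean level of the 24 genes was 11.40 to 11.49 on the deleted, 11.40 to 11.46 on the floxed and 10.77 to 10.95 on the Hoxa9-Meis1 arrays. Of 9 late neutrophil genes 1 was higher from floxed to deleted, and their mean level was 11.77 to 13.02 on deleted, 11.57 to 12.53 on floxed and 11.11 to 12.44 on Hoxa9-Meis1 arrays. Of 9 T and NK cell markers 2 were called higher in deleted than in floxed cells. At an unadjusted p under 0.05, 6 were higher and 0 lower, against 12.3% and 9.81% of all genes. Gzma, called higher, averaged 4.49 in floxed cells, within the background range given below. The mean level of the 9 markers was 6.96 to 7.08 on deleted, 6.47 to 6.77 on floxed and 6.62 to 6.75 on Hoxa9-Meis1 arrays. Erythroid markers (9 measured) averaged between 6.06 and 6.21 on all arrays with none called from floxed to deleted, and Rhag lay within the background range of 2.97 to 4.71 set by Y-linked probe sets. Megakaryocyte markers (8 measured) averaged 6.12 to 6.60 and stromal markers (11 measured) 6.28 to 6.58, with none called from floxed to deleted. B cell markers (9 measured) averaged 6.76 to 7.38, and 1 was called lower in deleted than in floxed cells. Most went the other way, with 7 of the 9 above 0 and a median of 0.21. At an unadjusted p under 0.05, 4 B cell markers were higher and 2 lower there, against 12.3% and 9.81% of all genes. Against Hoxa9-Meis1, deleted cells had 3 of 9 T and NK cell, 2 of 9 B cell and 2 of 9 late neutrophil markers called higher. So were 1 of 9 erythroid and 1 of 11 stromal markers, and 1 other erythroid marker was lower. Of all genes 9.27% were called higher and 6.23% lower there. Floxed cells had 1 of 9 B cell markers higher, where 5.58% of all genes were. Of 11 genes of myeloid identity, 1 was called lower from floxed to deleted, and 2 were lower in floxed and 1 in deleted against Hoxa9-Meis1 cells. From floxed to deleted, however, 9 of the 11 were above 0, with a median of 0.39. At an unadjusted p under 0.05, 3 were higher and 1 was lower there, against 12.3% and 9.81% of all genes. Their mean level was 11.94 to 12.03 on deleted, 11.41 to 11.95 on floxed and 12.06 to 12.13 on Hoxa9-Meis1 arrays.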

How the data were processed

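Total RNA (100 ng per sample, per the labels' protocols) was hybridised to 9 one-colour Affymetrix mouse arrays. The authors deposited 1 intensity per probe set for 45101 probe sets, made with RMA per the submitters' processing notes, which includes background correction and quantile normalization. The RMA version is not given in the sources used here, nor is a genome build. The intensities are on a linear scale, so log2(value + 1) was taken, which slightly understates differences of dim probe sets. The platform annotation gave 1 symbol for 34958 probe sets, several for 932 and none for 9211, and 34754 were matched by gene ID to a RefSeq gene table (GRCm38.p6). Each of 18194 genes was represented by its brightest probe set on average over all 9 arrays. Levels of different genes were not compared, since probe sets differ in brightness. Members, roles and the lists of other pathway genes, ribosomal proteins, Myc family, proliferation and cell type markers were chosen with earlier results of these data known.

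Groups and replicate numbers came from the labels, except that Hoxa9-Meis1 arrays were numbered in accession order. The 9 arrays entered a single model of group means, fitted by limma 3.58.1 (lmFit, eBayes) under R 4.3.3. Tests were two-sided, p-values were adjusted over all genes within a comparison by Benjamini-Hochberg, and genes were called at an adjusted p under 0.05. The script was tested on simulated data. Members called, and otherwise the member with the largest difference of each role, were named with their values, as were the 3 largest rises and falls among other pathway genes called, and Myc. A few more were named after their values were seen: the other Myc family genes and the probe sets and array extremes of Ddx18, Bop1, Polr1b, Wdr75, Ncl, Npm1 and Fbl. Arrays carry no read depth, and their number limits the precision. The alternatives tried were other normalizations, pseudocounts, probe set rules, dim filters, priors, array weights, sample sets and a replicate block. The labels give no batch.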

Additional observations from a re-analysis of the deposited data

How the results depend on the processing

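From floxed to deleted the count of members called was 0 in both directions under every alternative run, except 1 higher (Rrs1) when probe sets of a gene were averaged; it was 0 to 0 with each array left out. For floxed against Hoxa9-Meis1, the 1 member higher became 2 with the mean of probe sets (Imp4 and Ddx18), 2 with array weights (Imp4 and Nhp2), 0 with only the compared groups fitted, 0 when deleted replicate 6 and floxed replicate 5 were both left out, and 0 to 3 with each array left out. The count lower was 2 with the mean of probe sets (Bop1 and Odc1) and 0 to 0 with each array left out. For deleted against Hoxa9-Meis1, the 2 members higher became 1 with quantile normalization, 1 with median centring, 4 with the mean of probe sets, 5 with array weights, 3 with only the compared groups fitted, 1 without those 2 arrays, and 1 to 2 with each array left out. The 1 lower became 2 with only the compared groups fitted (Odc1 and Polr1a), 0 without those 2 arrays and 0 to 1 with each array left out. The cause was not tested. The difference of Ddx21 from floxed to deleted turned from -0.22 to 0.015 without those 2 arrays.

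In single genes, Imp4 kept its deleted call under every alternative run, while its floxed call was lost with only the compared groups (limma adjusted p = 0.0643) and without those 2 arrays (0.0891). Rrs1 lost its call with quantile normalization (limma adjusted p = 0.0688), median centring (0.0502) and without the 2 arrays (0.0724), and Odc1 lost its call without the 2 arrays (0.0886). The members' median against Hoxa9-Meis1, 0.13 for both, was 0.07 for floxed and 0.08 for deleted cells with quantile normalization. With array weights it was 0.06 for floxed and 0.17 for deleted cells, and with probe sets averaged 0.12 and 0.04. With each array left out it ranged from 0.04 to 0.16 and from 0.08 to 0.18. Removing the shifts of whole chromosomes on single arrays, in both forms (the second chosen after seeing the data), leaves group means almost as they were by construction. Over all genes, 1246 were called from floxed to deleted and 498 without those 2 arrays, 736 without deleted replicate 4, 645 without floxed replicate 5 and 599 with the replicate block. For floxed against Hoxa9-Meis1 1618 were called, but 2543 with array weights and 681 to 1028 without floxed replicate 5 or Hoxa9-Meis1 replicate 1 or 2. For deleted against Hoxa9-Meis1 2821 were called, but 1540 to 1860 without deleted replicate 4 or Hoxa9-Meis1 replicate 1 or 2.

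Deleted and floxed arrays share the numbers 4, 5 and 6 in the labels, but the deviations of same-numbered arrays from their group means correlated at 0.03, 0.05 and 0.01, so the numbers were not taken to pair them. With the replicate block 0 members were called higher and 0 lower. With 3 arrays a group the median SE of a member's difference was 0.16, and 20, 14 and 17 of the 39 intervals lay inside ±0.5 in the 3 comparisons.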
